A study of Chlorocebus aethiops with 12 samples.

Results

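The genes described here belong to the stress response of the endoplasmic reticulum (ER) and to the linked response to amino acid shortage. They were 32 genes chosen by transcript accession, of which 30 had probes on the array under the listed accession. ASNS (NM_133436) and SLC3A2 (NM_002394) had none and were not analysed here. All 30 were well above background on all 12 arrays and entered the tests, among 24587 accessions tested in all.

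The RNA came from COS-1, an African green monkey kidney line with fibroblast-like growth, and was hybridised to one-colour arrays carrying human probes. Every group expressed S211A, a glucocorticoid receptor (GR) with a mutated phosphorylation site, from a transfected plasmid. The groups differed in whether MDFIC was co-transfected and in a 6 h treatment with vehicle or 100 nM dexamethasone (Dex), a synthetic hormone that activates GR. The groups were thus S211A with vehicle, S211A with Dex, S211A+MDFIC with vehicle and S211A+MDFIC with Dex, with 3 biological replicates each per the labels. The controls carried the mutant receptor too, and the share of cells that took up the plasmids was not measured here. The arrays lay on 3 slides of 4: all S211A vehicle arrays shared slide 1 with S211A Dex replicate 1, all S211A+MDFIC Dex arrays shared slide 3 with S211A+MDFIC vehicle replicate 3, and slide 2 carried the other 4. Between 67.8% and 80.7% of all probes were well above background on an array, with the lowest shares on slide 1, and arrays of 1 group correlated with r of 0.986 to 0.996 across accessions.

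Secreted and membrane proteins fold in the ER with the help of chaperones. When unfolded protein builds up there, the membrane sensors PERK (gene EIF2AK3), IRE1 (ERN1) and ATF6 start the unfolded protein response, which slows protein synthesis and raises chaperones, folding enzymes and degradation factors. PERK, and GCN2 when amino acids run short, phosphorylate eIF2alpha, which slows translation in general but favours that of the transcription factor ATF4. ATF4 in turn drives DDIT3, TRIB3, CHAC1, SESN2 and genes of amino acid synthesis and uptake, a program called the integrated stress response.

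The first question was how Dex acted on these genes when MDFIC was not added. In S211A cells 9 of the 30 genes fell under Dex and 0 rose. The 9 were 3 transcription factors of the response (DDIT3, XBP1, ATF4), the 4 feedback genes and late outputs (PPP1R15A, SESN2, TRIB3, CHAC1), the chaperone HSPA5 and the degradation factor HERPUD1. Across all accessions 6.50% were called in this comparison, 4.31% as rises and 2.20% as falls. A gene was called at an adjusted p under 0.05 in limma, two-sided, with the adjustment over all accessions tested. The median log2 change over the 30 genes was -0.10, against 0.02 over all accessions.

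With MDFIC added, 8 of the 30 genes fell under Dex and 0 rose. Across all accessions 9.99% were called, 6.26% as rises and 3.73% as falls, and the median log2 change was -0.11 over the 30 genes against 0.05 over all. HSPA5, ATF4, XBP1, TRIB3, DDIT3, HERPUD1 and PPP1R15A passed in both kinds of cell. These were 7 of the 9 and 7 of the 8. The matching overlap over all accessions was not counted here, so these shares are not particular to the 30 genes. CHAC1 and SESN2 passed in S211A cells alone and SLC7A11 in S211A+MDFIC cells alone, which does not by itself show that their responses differed. The Dex comparisons in the 2 kinds of cell share no array, but they share each accession's variance estimate.

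**Figure D1:**
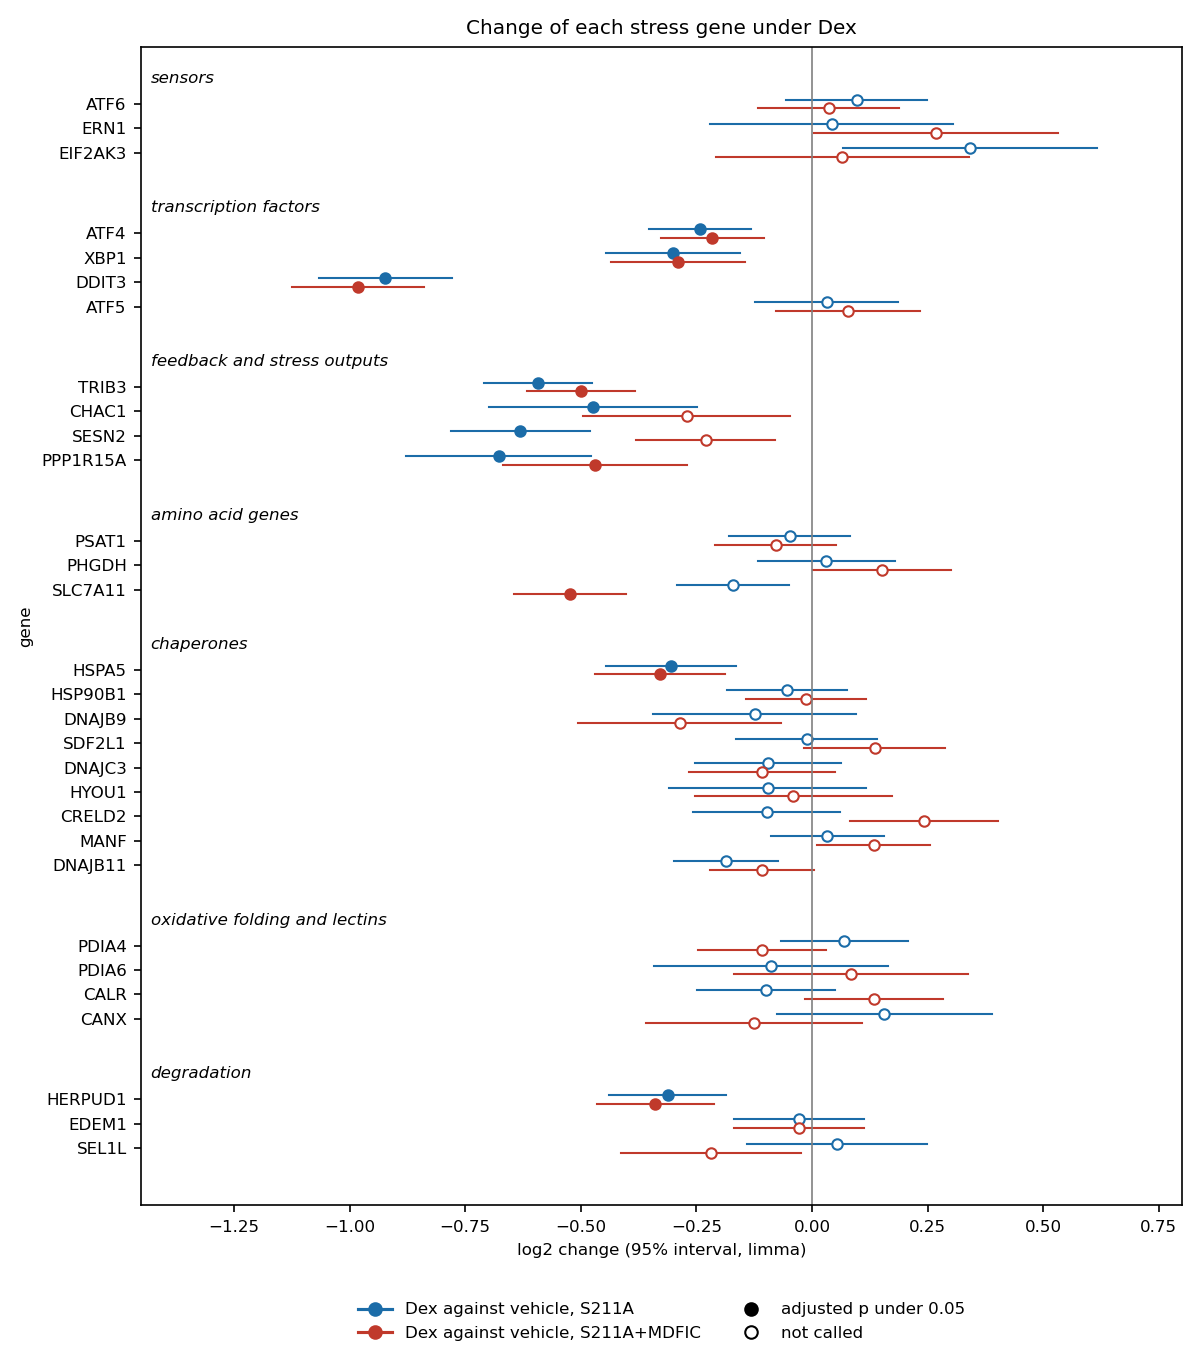
Fitted log2 change of each of the 30 genes under Dex (x axis) in S211A cells (blue) and S211A+MDFIC cells (red), with 95% intervals from limma, n = 3 arrays per group. Filled points passed at an adjusted p under 0.05. All filled points lie left of 0, and DDIT3 lies farthest left in both kinds of cell, at -0.92 and -0.98.

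DDIT3 (NM_004083) encodes CHOP, a transcription factor that promotes cell death when ER stress persists. Values are log2 intensities relative to the array's own 75th percentile, so that a higher value by 1 means 2 times the signal. In S211A cells DDIT3 read 2.41, 2.55 and 2.52 under vehicle and 1.49, 1.68 and 1.55 under Dex. The arrays with MDFIC read 2.62, 2.54 and 2.58 under vehicle and 1.62, 1.52 and 1.65 under Dex. Every Dex array lay below every vehicle array, with a gap far wider than the spread within any group. Non-overlap of this kind in the downward direction held for 11.4% of all accessions in S211A cells and for 12.9% with MDFIC. Of the 30 genes, 12 and 14 lay wholly lower under Dex in the respective cells, and 2 and 2 wholly higher, against 14.5% and 18.7% of all accessions.

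DDIT3 thus fell by 47.2% in S211A cells (log2 -0.92, SE 0.06, limma adjusted p = 2.21e-05). With MDFIC it fell by 49.4% (log2 -0.98, SE 0.06, limma adjusted p = 1.38e-05). Of the 24587 accessions, 81 had a lower fitted change than DDIT3 in S211A cells and 108 with MDFIC. The call held under all 22 alternative settings in both kinds of cell.

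ATF4 (NM_001675), the transcription factor upstream of DDIT3 in the integrated stress response, fell less. It read 5.67, 5.69 and 5.75 on the S211A vehicle arrays and 5.42, 5.52 and 5.45 on the S211A Dex arrays. The corresponding values with MDFIC were 5.51, 5.53 and 5.53 under vehicle and 5.28, 5.26 and 5.37 under Dex. Dex and vehicle arrays did not overlap in either kind of cell. The log2 change was -0.24 (SE 0.05, limma adjusted p = 0.0179) in S211A cells and -0.22 (SE 0.05, limma adjusted p = 0.0243) in S211A+MDFIC cells. ATF4 thus fell by 15.5% and fell by 13.9%, respectively. The array reads the RNA, whereas ATF4 is known to be controlled largely in translation.

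A second ATF4 probe gave a smaller change in the same direction. Its log2 changes were -0.11 (SE 0.05) in S211A cells and -0.10 (SE 0.05) in S211A+MDFIC cells, with adjusted p-values over all 31232 tested probes of 0.275 and 0.251. With the probes averaged, ATF4 stood at -0.18 and -0.16 and did not pass in either kind of cell.

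XBP1 (NM_005080) encodes the factor that IRE1 activates by splicing its RNA, and 1 probe gave a single value for it, so that the spliced form was not measured apart. It read 3.25, 3.24 and 3.32 under vehicle and 3.03, 2.83 and 3.04 under Dex in S211A cells. With MDFIC it read 3.17, 3.21 and 3.18 under vehicle and 2.97, 2.83 and 2.90 under Dex. Dex and vehicle arrays did not overlap in either kind of cell. The log2 changes were -0.30 (SE 0.06, limma adjusted p = 0.0228) and -0.29 (SE 0.06, limma adjusted p = 0.0216). XBP1 thus fell by 18.9% and fell by 18.2%. ATF5, a further factor of the ATF4 family, gave log2 changes of 0.03 (95% interval -0.12 to 0.19) and 0.08 (-0.08 to 0.23) and did not pass.

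**Figure D2:**
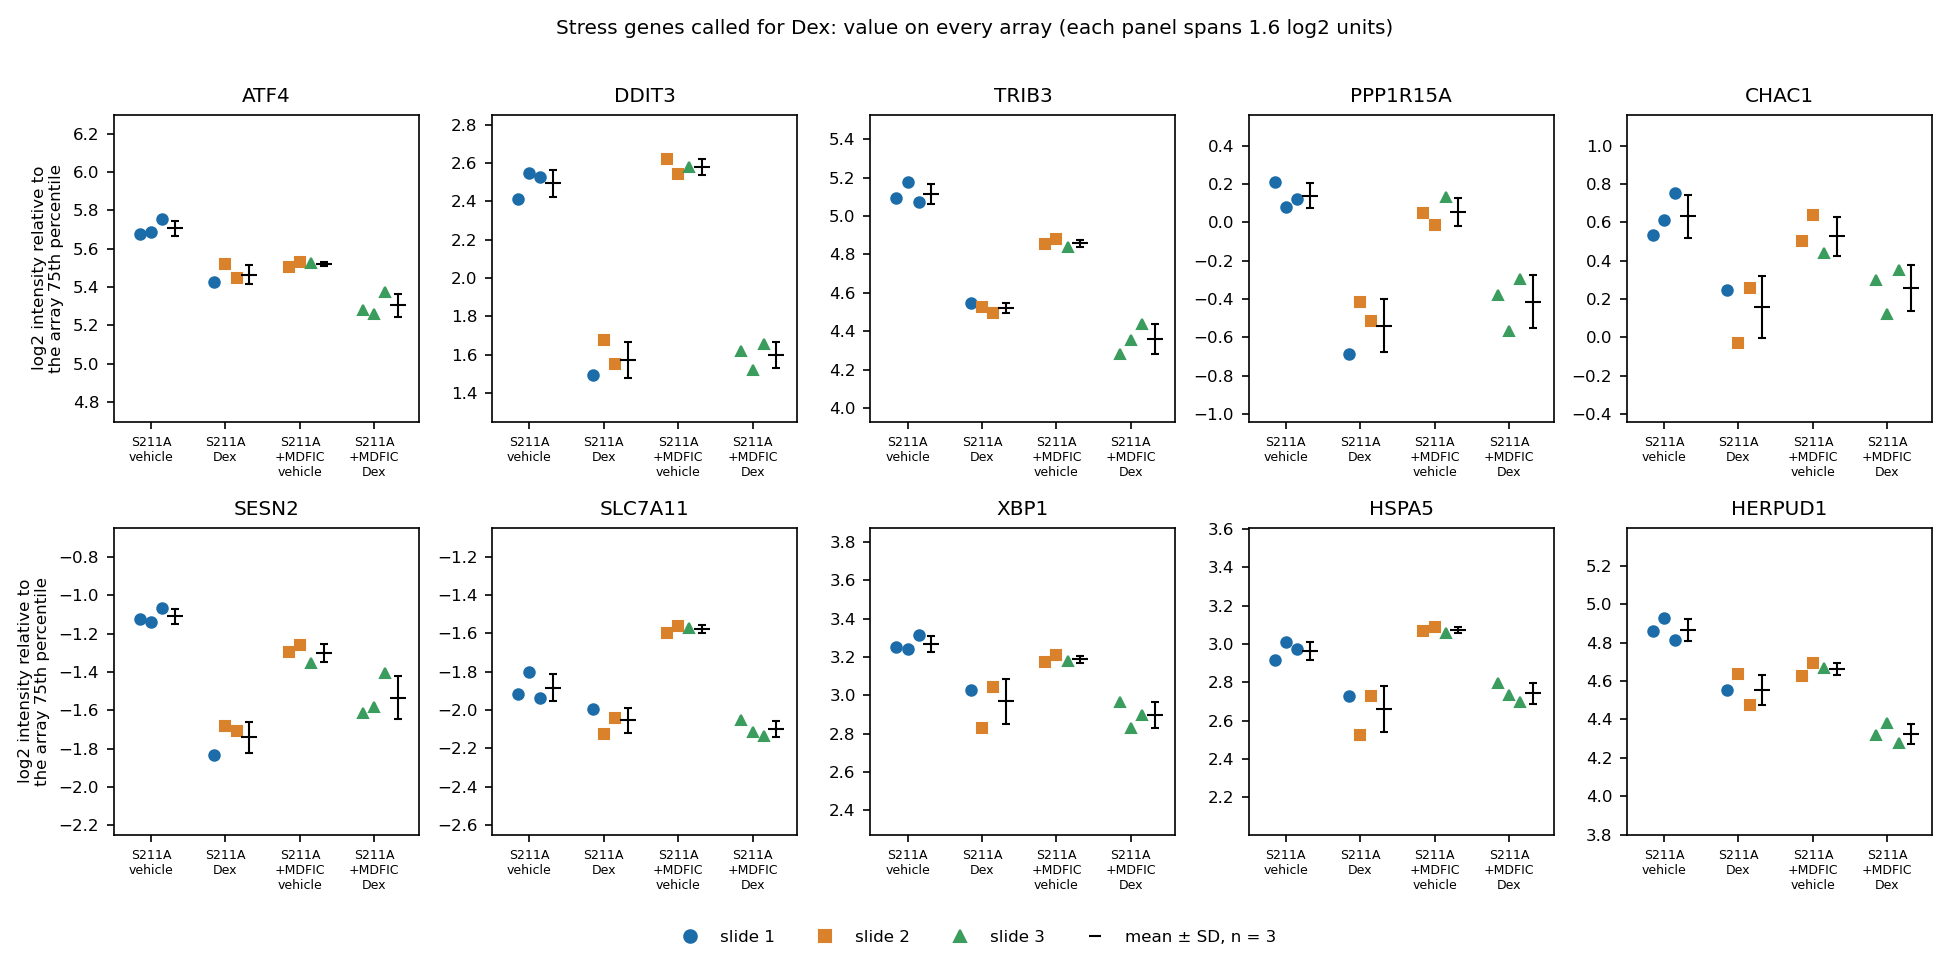
Log2 intensity relative to the array's 75th percentile (y axis, each panel spanning the same range) on each of the 12 arrays for the 10 genes called for Dex in either kind of cell. Symbols mark the slide, and black bars give mean ± SD, n = 3. Within each kind of cell the Dex arrays lie below the vehicle arrays in all 10 panels. In the SESN2 panel the step is larger in S211A cells and in the SLC7A11 panel it is larger in S211A+MDFIC cells.

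The 4 feedback genes and late outputs of the ATF4 branch all passed in S211A cells, and 2 of them passed in S211A+MDFIC cells. PPP1R15A (NM_014330) encodes GADD34, the phosphatase subunit that reverses eIF2alpha phosphorylation. It read 0.21, 0.08 and 0.12 under vehicle and -0.69, -0.42 and -0.51 under Dex in S211A cells. The arrays with MDFIC read 0.05, -0.02 and 0.13 under vehicle and -0.38, -0.57 and -0.30 under Dex. All Dex arrays were below 0 and the vehicle arrays at or above -0.02. PPP1R15A fell by 37.5% (log2 -0.68, SE 0.09, limma adjusted p = 0.00155) in S211A cells and fell by 27.8% (log2 -0.47, SE 0.09, limma adjusted p = 0.0102) in S211A+MDFIC cells.

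TRIB3 (NM_021158), a pseudokinase that DDIT3 and ATF4 induce and that restrains both, was measured by 2 probes. The brighter one read 5.09, 5.18 and 5.08 under vehicle and 4.55, 4.53 and 4.49 under Dex in S211A cells. The corresponding values with MDFIC were 4.85, 4.88 and 4.84 under vehicle and 4.28, 4.35 and 4.44 under Dex. The 4 groups formed 4 separate levels, highest in S211A vehicle and lowest in S211A+MDFIC Dex. TRIB3 fell by 33.7% in S211A cells (log2 -0.59, SE 0.05, limma adjusted p = 0.000113) and fell by 29.3% in S211A+MDFIC cells (log2 -0.50, SE 0.05, limma adjusted p = 0.000305). The other probe read -0.54 (SE 0.09) and -0.32 (SE 0.09) for the same differences, with adjusted p-values over all probes of 0.0045 and 0.0471. The brighter TRIB3 probe passed under all 22 alternative settings in both kinds of cell.

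SESN2 (NM_031459) encodes sestrin 2, a leucine sensor that holds back mTORC1. It read -1.12, -1.14 and -1.06 under vehicle and -1.83, -1.68 and -1.71 under Dex in S211A cells. With MDFIC it read -1.29, -1.26 and -1.35 under vehicle and -1.62, -1.58 and -1.40 under Dex. The S211A arrays were both higher under vehicle and lower under Dex than the S211A+MDFIC arrays. SESN2 fell by 35.4% in S211A cells (log2 -0.63, SE 0.07, limma adjusted p = 0.000395). In S211A+MDFIC cells its log2 difference was -0.23 (95% interval -0.38 to -0.08, limma adjusted p = 0.060), which did not pass. It did pass there under 5 of the 22 alternative settings, among them quantile normalization and median centring, with limma adjusted p-values from 0.0187 to 0.43 over all 22.

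CHAC1 (NM_024111), which breaks down glutathione and is an output of the ATF4 and DDIT3 branch, read 0.53, 0.61 and 0.75 under vehicle and 0.25, -0.03 and 0.25 under Dex in S211A cells. The arrays with MDFIC read 0.50, 0.64 and 0.44 under vehicle and 0.30, 0.12 and 0.35 under Dex. The groups did not overlap in either kind of cell. CHAC1 fell by 28.0% in S211A cells (log2 -0.47, SE 0.10, limma adjusted p = 0.0216), while the difference of -0.27 in S211A+MDFIC cells (95% interval -0.50 to -0.05, limma adjusted p = 0.119) did not pass.

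Of the amino acid genes, 3 were measured. SLC7A11 (NM_014331), the cystine and glutamate exchanger of the plasma membrane, read -1.91, -1.80 and -1.94 under vehicle and -2.00, -2.12 and -2.04 under Dex in S211A cells. The corresponding values with MDFIC were -1.60, -1.56 and -1.57 under vehicle and -2.05, -2.11 and -2.14 under Dex. The 3 S211A+MDFIC vehicle arrays stood above all others, and the 2 Dex groups overlapped. SLC7A11 fell by 30.5% under Dex in S211A+MDFIC cells (log2 -0.52, SE 0.05, limma adjusted p = 0.000287), under all 22 alternative settings too. In S211A cells the log2 difference was -0.17 (95% interval -0.29 to -0.05, limma adjusted p = 0.109). Its other 2 probes were well above background on at most 1 array and were not tested.

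PSAT1 and PHGDH, enzymes of serine synthesis, did not pass in either kind of cell. PSAT1 gave log2 differences of -0.05 (95% interval -0.18 to 0.08) in S211A cells and -0.08 (-0.21 to 0.05) in S211A+MDFIC cells. PHGDH gave 0.03 (-0.12 to 0.18) and 0.15 (0.00 to 0.30). These intervals leave out a fall of the size seen for TRIB3 or PPP1R15A in the same cells.

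Among the 9 chaperones and their cofactors, 1 passed for Dex. HSPA5 (NM_005347) encodes BiP, the main Hsp70 chaperone of the ER and the protein that keeps the sensors inactive. It read 2.92, 3.01 and 2.97 under vehicle and 2.73, 2.52 and 2.73 under Dex in S211A cells. With MDFIC it read 3.07, 3.09 and 3.06 under vehicle and 2.80, 2.73 and 2.69 under Dex. The Dex arrays lay below the vehicle arrays in both kinds of cell. HSPA5 fell by 19.0% (log2 -0.30, SE 0.06, limma adjusted p = 0.0193) and fell by 20.4% (log2 -0.33, SE 0.06, limma adjusted p = 0.011).

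A second HSPA5 probe, between -5.34 and -4.41 on all arrays, gave log2 differences of -0.06 (SE 0.20) in S211A cells and -0.38 (SE 0.20) in S211A+MDFIC cells. Its intervals included both 0 and the change of the brighter probe. With both probes averaged, HSPA5 stood at -0.18 in S211A cells, where it did not pass, and at -0.36 in S211A+MDFIC cells, where it did.

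The other chaperones did not pass for Dex. In S211A cells their log2 differences ran from -0.19 for DNAJB11 (95% interval -0.30 to -0.07, limma adjusted p = 0.0618) to 0.03 for MANF. HSP90B1, which encodes the ER form of Hsp90, gave -0.05 (-0.18 to 0.08) and -0.01 (-0.14 to 0.12). In S211A+MDFIC cells the range was wider, from -0.29 for DNAJB9 (-0.51 to -0.07, limma adjusted p = 0.0964) to 0.24 for CRELD2 (0.08 to 0.40, limma adjusted p = 0.0605). CRELD2 passed as a rise in S211A+MDFIC cells, and DNAJB11 as a fall in S211A cells, with trended and robust moderation. CRELD2 also passed with the filter on all 12 arrays, and DNAJB11 with quantile normalization. With S211A Dex replicate 1 or S211A+MDFIC Dex replicate 2 left out, DNAJB11 passed as a fall in S211A cells too. DNAJB9 is a cofactor of BiP that represses IRE1, and CRELD2 is a secreted ER stress protein. A second, less bright HSP90B1 probe gave -0.26 (SE 0.07) under Dex in S211A+MDFIC cells, with an adjusted p over all probes of 0.0417, unlike the probe that stood for the gene.

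The folding enzymes and lectins PDIA4, PDIA6, CALR and CANX did not pass for Dex in either kind of cell, with differences between -0.13 and 0.16. Calnexin and calreticulin, encoded by CANX and CALR, hold sugar-bearing proteins in the ER until they are folded. The 2 CANX probes differed in sign in both kinds of cell, and neither passed.

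HERPUD1 (NM_014685), a membrane protein that assembles the machinery of ER-associated degradation, was the 1 degradation gene of 3 that passed. It read 4.86, 4.93 and 4.81 under vehicle and 4.55, 4.64 and 4.48 under Dex in S211A cells. The arrays with MDFIC read 4.63, 4.69 and 4.67 under vehicle and 4.32, 4.38 and 4.28 under Dex. The Dex arrays lay below the vehicle arrays in both kinds of cell. HERPUD1 fell by 19.4% (log2 -0.31, SE 0.06, limma adjusted p = 0.00948) and fell by 20.9% (log2 -0.34, SE 0.06, limma adjusted p = 0.00525). EDEM1, which hands misfolded glycoproteins over for degradation, gave log2 differences of -0.03 (95% interval -0.17 to 0.11) in S211A cells and -0.03 (-0.17 to 0.11) in S211A+MDFIC cells. SEL1L, a partner of the ubiquitin ligase of this pathway, gave 0.05 (-0.14 to 0.25) and -0.22 (-0.41 to -0.02, limma adjusted p = 0.143).

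The 3 sensors did not pass either. EIF2AK3, given here array by array after its values were seen, read -1.50, -1.54 and -1.72 under vehicle and -1.05, -1.34 and -1.35 under Dex in S211A cells, without overlap, a log2 difference of 0.34 (95% interval 0.07 to 0.62, limma adjusted p = 0.155). Its difference in S211A+MDFIC cells was 0.07 (-0.21 to 0.34). ERN1 gave 0.04 (-0.22 to 0.31) and 0.27 (0.00 to 0.53), and ATF6 gave 0.10 (-0.06 to 0.25) and 0.04 (-0.12 to 0.19). A second ATF6 probe gave 0.13 (SE 0.08) and -0.02 (SE 0.08).

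Slide moved with treatment in part of this design, and its part in the smaller changes was not tested beyond the following values. In S211A cells the only slide with both groups was slide 1, and in S211A+MDFIC cells it was slide 3. Within slide 1 the 1 Dex array differed from the mean of the 3 vehicle arrays by -1.001 for DDIT3, -0.83 for PPP1R15A, -0.72 for SESN2, -0.57 for TRIB3, -0.38 for CHAC1, -0.32 for HERPUD1, -0.28 for ATF4, -0.24 for HSPA5 and -0.24 for XBP1. Within slide 3 the 3 Dex arrays differed from the 1 vehicle array by -0.98 for DDIT3, -0.55 for PPP1R15A, -0.53 for SLC7A11, -0.48 for TRIB3, -0.34 for HERPUD1, -0.31 for HSPA5, -0.28 for XBP1 and -0.22 for ATF4. All called genes kept their direction within a slide. Their Dex arrays all lay below their vehicle arrays, so this direction was fixed in advance and is no separate test. A fit with slide as a fixed block gives these same values, and then 4 genes passed in S211A cells (TRIB3, DDIT3, SESN2 and PPP1R15A) and 3 in S211A+MDFIC cells (TRIB3, DDIT3 and SLC7A11). Over all accessions the calls in that fit numbered 662 (2.69%) and 594 (2.42%), against 1599 and 2457 without the block. Leaving out S211A vehicle replicate 2 or 3 left 5 of the 9 calls, TRIB3, DDIT3, HERPUD1, SESN2 and PPP1R15A, while 1055 or 1158 of all accessions passed. Leaving out S211A+MDFIC Dex replicate 2 gave 13 calls, 9 falls and 4 rises, the rises being CALR, PHGDH, ERN1 and CRELD2, while 4699 of all accessions passed (19.1%).

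The next question was whether MDFIC altered the Dex response of these genes. When the 2 Dex responses were set against each other in limma, 0 of 30 genes passed, against 0.268% of all accessions (0.260% higher and 0.00813% lower), and 4 of the 30 had an unadjusted p under 0.05, against 9.85% of all accessions. For DDIT3 the response with MDFIC minus that without was -0.06 (95% interval -0.26 to 0.14). It was 0.03 (-0.13 to 0.18) for ATF4, 0.01 (-0.19 to 0.22) for XBP1, -0.02 (-0.22 to 0.18) for HSPA5 and -0.03 (-0.21 to 0.15) for HERPUD1. For TRIB3 it was 0.09 (-0.07 to 0.26), and for PPP1R15A 0.21 (-0.07 to 0.49). The intervals of the first 5 genes thus ran no lower than -0.26 and no higher than 0.22, before any correction for the number of tests. Under alternatives the estimates of DDIT3, ATF4, XBP1, HSPA5 and HERPUD1, all near 0, changed sign.

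The 4 genes under the unadjusted threshold were SESN2, SLC7A11, CRELD2 and CALR, named here after their values were seen. SESN2 gave 0.40 (95% interval 0.19 to 0.61, limma adjusted p = 0.188), a smaller fall with MDFIC. SLC7A11 gave -0.35 (-0.53 to -0.18, limma adjusted p = 0.13), a larger fall with MDFIC. CRELD2 gave 0.34 (0.11 to 0.57, limma adjusted p = 0.327) and CALR 0.23 (0.02 to 0.45, limma adjusted p = 0.476). None of these held up against the correction over all accessions.

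Under vehicle, S211A+MDFIC cells were then compared with S211A cells. SLC7A11 was higher and MANF lower with MDFIC, so that 2 of the 30 genes passed, against 0.948% of all accessions, 0.423% as rises and 0.525% as falls. SLC7A11, with the array values given above, differed by 0.31 (log2, SE 0.05, limma adjusted p = 0.0352). The same 3 S211A+MDFIC vehicle arrays enter this comparison and the Dex comparison in which SLC7A11 fell. MANF (NM_006010), a secreted ER protein that protects stressed cells, read 6.50, 6.51 and 6.50 in S211A cells and 6.18, 6.17 and 6.22 in S211A+MDFIC cells under vehicle. Under Dex it read 6.65, 6.45 and 6.51 in S211A cells and 6.33, 6.29 and 6.36 in S211A+MDFIC cells. The S211A+MDFIC arrays lay below all S211A arrays, and the log2 difference was -0.31 under vehicle (SE 0.05, limma adjusted p = 0.0345).

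**Figure D3:**
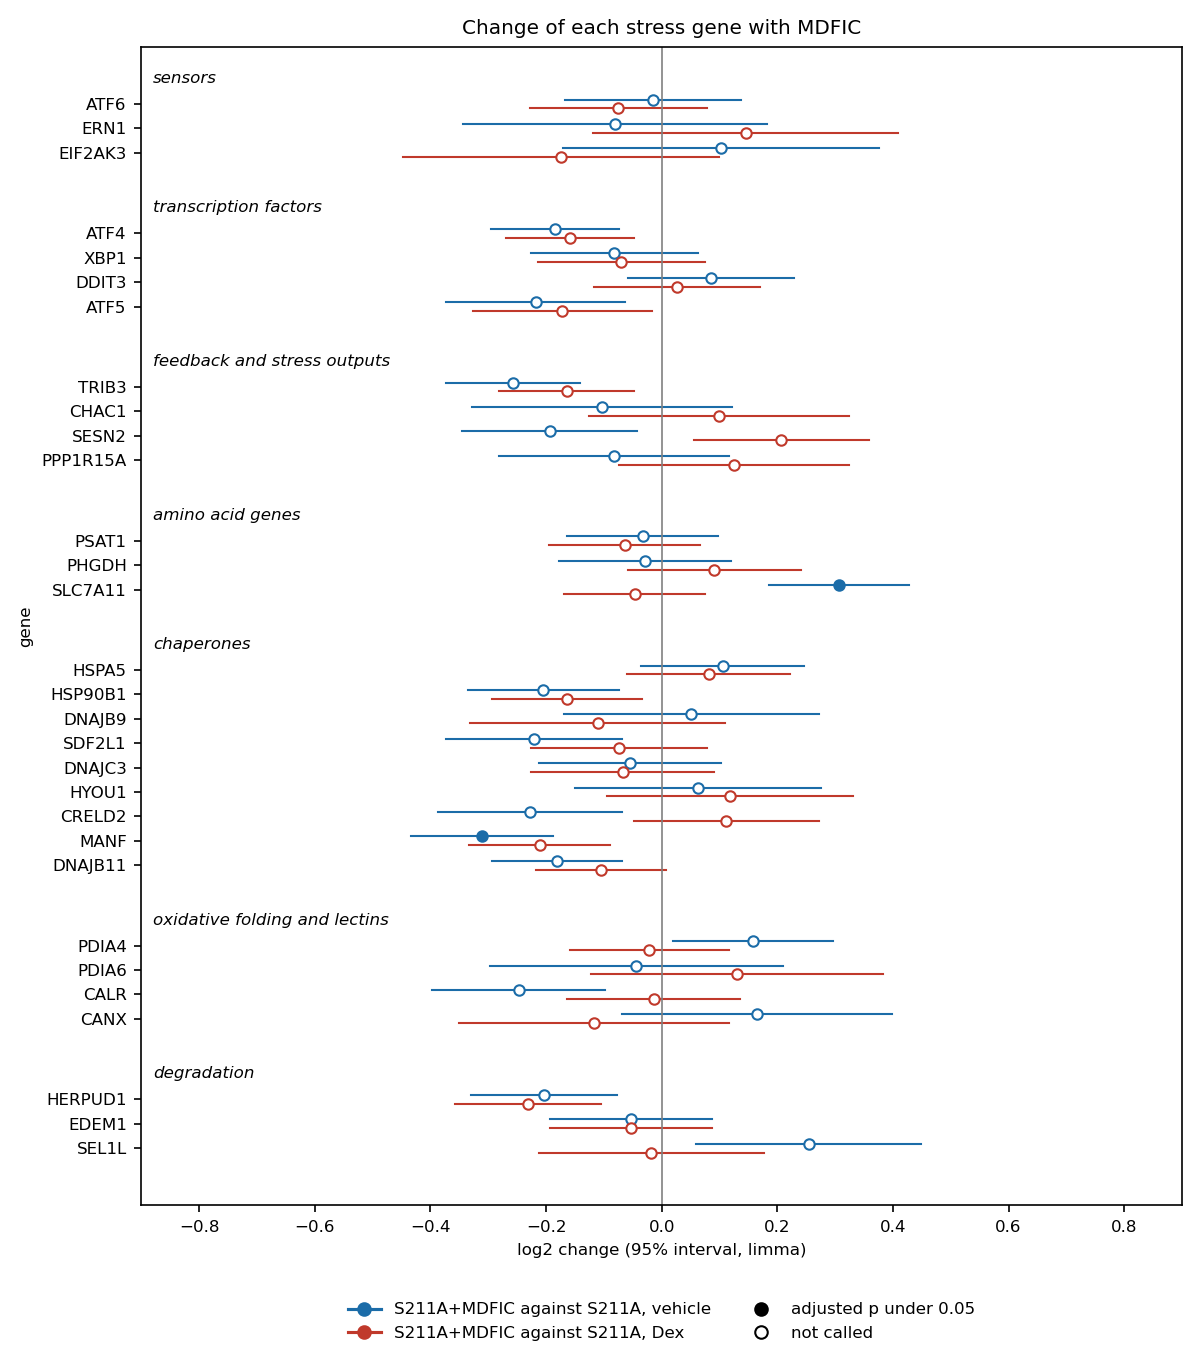
Fitted log2 difference between S211A+MDFIC and S211A cells (x axis) under vehicle (blue) and under Dex (red) for the 30 genes, with 95% intervals from limma, n = 3 arrays per group. Filled points passed at an adjusted p under 0.05: SLC7A11 at 0.31 and MANF at -0.31, both under vehicle. Most other points lie within 0.25 of 0.

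No slide held both groups of an MDFIC comparison under vehicle or under Dex, so that slide and MDFIC cannot be told apart there except through the other groups. With slide as a fixed block SLC7A11 stood at 0.39 (limma adjusted p = 0.311) and MANF at -0.16 (limma adjusted p = 0.531), and 0 of 30 genes passed. That fit called 75 of all accessions (0.305%), against 233 without the block. Both calls were also absent with normexp background correction, quantile normalization, median centring or the deposited values without scaling. Calls over all accessions there numbered 107, 197, 192 and 72, respectively. Conversely, 3 genes passed with no filter on dim probes, with the filter on all 12 arrays and with trended and robust moderation. Those settings called 1456, 303 and 502 of all accessions. Leaving out 1 array gave 0 to 3 calls, with 0 in 7 of the 12 cases, among them each of the 3 S211A+MDFIC vehicle arrays. Calls over all accessions then ran from 65 to 442. They numbered 67, 65 and 101 without S211A+MDFIC vehicle replicate 1, 2 and 3, so that the loss of calls was general.

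The remaining differences under vehicle lay between -0.26 for TRIB3 (95% interval -0.37 to -0.14, limma adjusted p = 0.0578) and 0.25 for SEL1L (0.06 to 0.45, limma adjusted p = 0.189). TRIB3 passed under 3 of the 22 alternatives. The S211A+MDFIC arrays lay wholly below the S211A arrays for 13 of the 30 genes and wholly above them for 4, against 16.1% and 12.7% of all accessions. The 13 included ATF4, ATF5, TRIB3, SESN2 and HERPUD1 as well as HSP90B1, SDF2L1, CRELD2, DNAJB11 and CALR, and of these 13 only MANF passed. DDIT3 was not among them, with a difference of 0.09 (-0.06 to 0.23). Without scaling between arrays the median of all accessions moved from -0.01 to 0.12, and XBP1, CHAC1 and PPP1R15A changed sign.

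Under Dex, 0 of 30 genes differed between S211A+MDFIC and S211A cells in limma, against 0.427% of all accessions (0.264% higher and 0.163% lower), and 7 had an unadjusted p under 0.05, against 13.5% of all accessions. The differences ran from -0.23 for HERPUD1 (95% interval -0.36 to -0.10, limma adjusted p = 0.14) to 0.21 for SESN2 (0.06 to 0.36, limma adjusted p = 0.255). MANF gave -0.21 (-0.33 to -0.09, limma adjusted p = 0.159). DDIT3 gave 0.03 (-0.12 to 0.17) and HSPA5 0.08 (-0.06 to 0.22). The S211A+MDFIC arrays lay wholly below the S211A arrays for 6 genes and wholly above them for 1, against 7.96% and 7.02% of all accessions.

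A second tested probe was present for 7 of the 30 genes. For ATF4, TRIB3 and HSPA5 both probes gave negative Dex differences in both kinds of cell, with the sizes given above. Under Dex the TRIB3 probes gave -0.16 (SE 0.05) and 0.08 (SE 0.09) for MDFIC, opposite in sign. HSPA5 under Dex (0.08 and -0.32) and CANX under vehicle (0.16 and -0.09) and under Dex (-0.12 and 0.13) also had probes of opposite sign for MDFIC, and none of these passed. So did ATF6 and EDEM1. The brighter ATF6 probe gave -0.01 (SE 0.07) under vehicle and -0.07 (SE 0.07) under Dex, while the other gave 0.34 (SE 0.08, adjusted p over all probes 0.0817) and 0.18 (SE 0.08). For EDEM1 the brighter probe gave -0.05 (SE 0.06) and -0.05 (SE 0.06) and the other 0.25 (SE 0.09) and 0.24 (SE 0.09). The probes are human sequences on monkey RNA, and how well each matches the monkey transcript was not examined here.

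**Figure D4:**
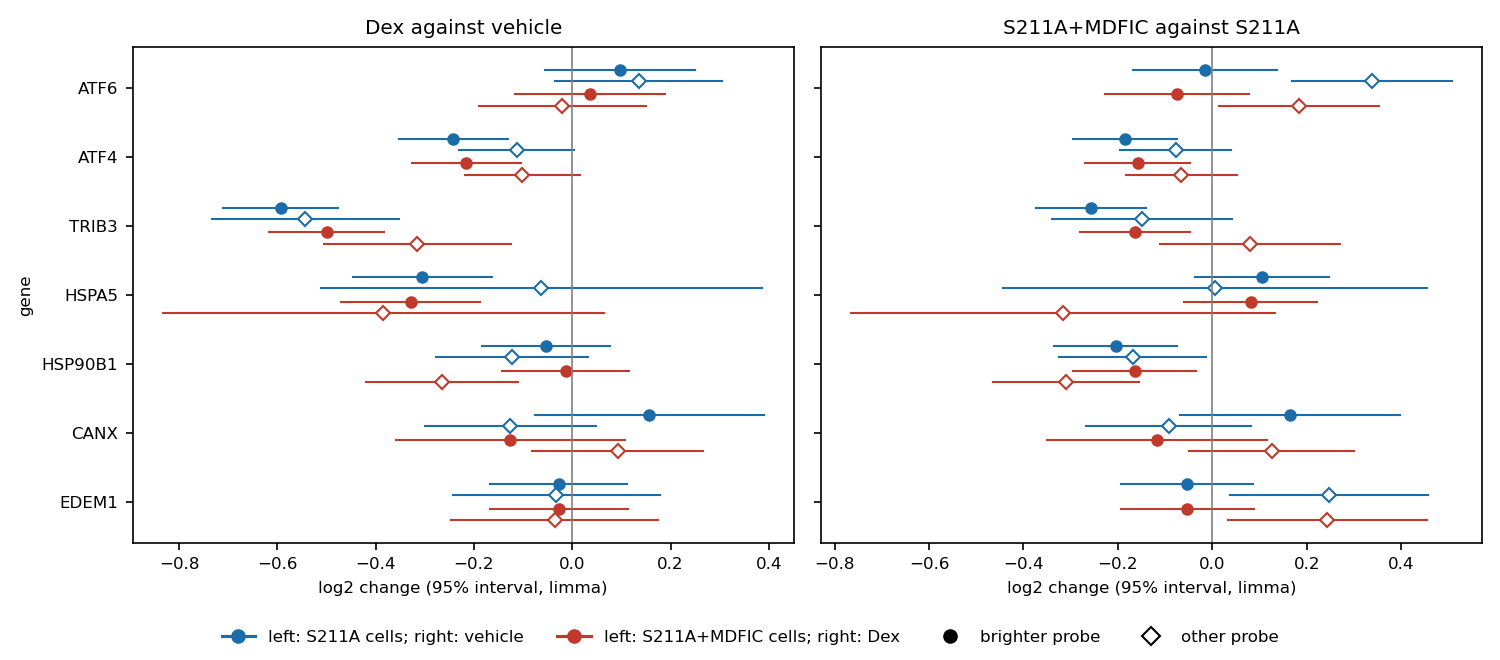
Log2 change with 95% interval (x axis) at both tested probes of the 7 genes that have 2, for Dex against vehicle (left; blue, S211A cells; red, S211A+MDFIC cells) and for S211A+MDFIC against S211A (right; blue, vehicle; red, Dex). Filled circles are the brighter probe, which stood for the gene, and open diamonds the other. Both TRIB3 probes lie left of 0 for Dex, and the ATF6 and EDEM1 probes part in the right panel.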

How the data were processed

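The authors deposited 12 one-colour Agilent arrays (Cy3) and a table with the same values. Per the file headers, the deposited intensity is the processed signal of Feature Extraction 12.0.0.7, with local background subtracted and the signal detrended within the array, and its 0 or 1 flags mark outlier spots and spots well above background. A linear intensity with no scaling between arrays was therefore the starting point. Here it was taken to log2, the array's 75th percentile was subtracted, outlier spots were set to missing and spots of a probe were averaged. Probes had to be well above background on all 3 arrays of a group. The probe with the highest mean stood for its accession. Gene symbols of the accessions came from the list that defines the gene set. The files pair probes with accessions and not with symbols, so other pathway genes, cell type markers and the transfected genes, listed by symbol, were not analysed here, and no probe sequences were used.

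One limma 3.58.1 model (R 4.3.3) fitted the 4 group means to all 12 arrays and gave 5 contrasts, with Benjamini-Hochberg adjustment over all accessions within each comparison. The fit was tested on simulated arrays. Genes and lists were chosen with earlier results of these data known. Array values are given for every gene called in any comparison and for HSPA5, ATF4, DDIT3, XBP1, TRIB3, CHAC1 and HERPUD1 regardless. The 22 alternatives were background correction (normexp, offset 50, on median signals), 3 other scalings, 2 other filters, averaged probes, trended and robust moderation, slide or replicate number as a block, and each of 12 arrays left out. Figures were drawn with matplotlib 3.10.9.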

Additional observations from a re-analysis of the deposited data

How the results depend on the processing

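All falls called under Dex kept their direction under all 22 alternatives. In S211A cells, where 9 genes passed for Dex, 4 passed with the deposited values without scaling, 4 with slide as a fixed block and 5 to 10 with 1 array left out. In S211A+MDFIC cells, where 8 passed, 3 passed without scaling, 3 with the slide block and 6 to 13 with 1 array left out. Calls over all accessions moved too: in S211A cells from 1599 to 506 without scaling, 662 with the slide block and 913 to 1871 with 1 array left out, and in S211A+MDFIC cells from 2457 to 518, 594 and 1180 to 4699. DDIT3 and TRIB3 passed throughout in both kinds of cell, as did PPP1R15A and SESN2 in S211A cells and SLC7A11 in S211A+MDFIC cells. For MDFIC under vehicle 0 genes passed with normexp, quantile normalization, median centring, no scaling, slide as a block or the replicate block. Calls over all accessions there numbered 107, 197, 192, 72, 75 and 123, respectively, down from 233. With no filter on dim probes, the filter on all 12 arrays or trended and robust moderation, 3 genes passed. Those settings called 1456, 303 and 502 of all accessions. With 1 array left out 0 to 3 genes passed, while 65 to 442 of all accessions did. For MDFIC under Dex, and likewise for the response difference, 0 genes passed in limma under every alternative. Calls over all accessions numbered 105 and 66, respectively, before these changes. MDFIC under Dex then gave 12 with the slide block and 36 to 731 with 1 array left out. The response difference gave 0 without scaling, 0 with no filter on dim probes and 0 to 284 with 1 array left out. Where few or no accessions passed, 0 calls among these genes say nothing about them in particular. Among the genes given array by array (EIF2AK3 apart, which was not followed here), signs changed only in differences that did not pass. For Dex in S211A cells, MANF stood at -0.0209 with median centring. For MDFIC under vehicle, XBP1, CHAC1 and PPP1R15A stood at 0.0505, 0.0287 and 0.0494 without scaling, and XBP1, CHAC1 and DDIT3 at 0.0158, 0.0749 and -0.0325 with the slide block. For MDFIC under Dex, XBP1 and SLC7A11 stood at 0.0445 and 0.0670 without scaling, HSPA5 at -0.117 with averaged probes, and DDIT3 and PPP1R15A at -0.0122 and -0.0633 with the slide block. For the response difference, HSPA5, ATF4 and HERPUD1 stood at 0.00288, -0.0206 and 0.0275 with normexp, ATF4 at -0.0221 with quantile normalization, XBP1 at -0.00446 with median centring and -0.00603 without scaling, and XBP1, DDIT3 and MANF at -0.0417, 0.0203 and -0.0400 with the slide block. Leaving out the scaling, or centring on the median, shifts the named genes of a comparison by the same amount. The cause of the other sign changes was not tested. With 1 array left out, MANF under Dex in S211A cells ran from -0.022 to 0.0771 and DDIT3 for MDFIC under Dex from -0.013 to 0.0778. The response difference then ran from -0.0925 to 0.0109 for HSPA5, -0.0558 to 0.0489 for XBP1, -0.0653 to 0.0136 for HERPUD1 and -0.00773 to 0.0545 for ATF4. Deviations of arrays with the same replicate number had correlations from -0.26 to 0.25, above 0.1 in 4 of 18 pairs. With 3 arrays per group these values cannot exclude a pairing. The replicate block left 9 and 8 genes called for Dex, while calls over all accessions fell from 1599 to 1258 and from 2457 to 2055. With 3 arrays per group, their number limits the precision, and all 30 genes were well above background.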
